A study of Mus musculus with 12 samples.

Results

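The transcripts of 10 antioxidant enzymes were followed in the mouse brain cortex: the glutathione synthesis and recycling genes Gclc, Gclm, Gss and Gsr, the glutathione peroxidases Gpx1 and Gpx4, the superoxide dismutases Sod1 and Sod2, and the stress-response enzymes Nqo1 and Hmox1. They were taken by gene symbol from a table of 33024 symbols, where each of the 10 had its own entry, and all 10 were among the 16059 genes that passed the filter on low counts. Cortices of 12 C57BL/6 mice were sequenced in bulk, 7 labelled Control with Vehicle as treatment and 5 labelled EtOH. Per the study's methods, mice aged 30 days at the start (P30) had a bottle of 20% (v/v) ethanol beside one of water for 12 h of each dark phase over 35 nights, while controls drank water alone, and tissue of Arm #2 was taken after 14 days of abstinence and behavioural testing, following perfusion with saline. The nights correspond to 5 weeks in the study's results, whereas its methods speak of 7 weeks. The sex of the mice is not given in the sources used here, and all mice were wildtype. Replicates are separate mice numbered within each group.

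Glutathione is a tripeptide that brain cells, astrocytes above all, hold in large amounts. Glutamate-cysteine ligase, made of a catalytic (Gclc) and a modifier (Gclm) subunit, joins glutamate to cysteine, and glutathione synthetase (Gss) adds glycine. Superoxide dismutases turn superoxide into hydrogen peroxide, glutathione peroxidases reduce peroxides at the cost of glutathione, and glutathione reductase (Gsr) regenerates it with NADPH. Several of these genes are known targets of the transcription factor Nrf2, which the adaptor Keap1 holds at a low level in resting cells.

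Total counts ranged from 31768076 to 40690223 in the Control mice and from 32048723 to 42183029 in the EtOH mice, and the detection floor of 3 counts was worth 0.0695 to 0.0962 CPM (TMM-scaled counts relative to library size). Such a floor covers counting error only. The members lay far above it, with between 65 counts for Nqo1 and 6627 counts for Sod2 in any mouse. All 10 markers of cortical neurons were detected, of which 3 fell and 3 rose at an adjusted p under 0.05, with summed levels of 4568 to 5780 CPM in the Control and 4215 to 4852 CPM in the EtOH mice. Markers of other regions and cell types were detected too, and their levels differed between the groups. All 15 striatal neuron markers fell, from summed levels of 1356 to 3049 CPM in the Control to 386 to 499 CPM in the EtOH mice, and 8 of 10 hippocampal markers rose, from 138 to 180 CPM to 263 to 356 CPM (edgeR quasi-likelihood test, where a call needed an adjusted p under 0.05 together with a log2 fold change of more than 0.5 either way). Of the 12 microglial markers, 7 fell at an adjusted p under 0.05 without a fold change minimum and all 12 had a negative log2 fold change, with summed levels of 400 to 457 CPM against 340 to 365 CPM. Of the 10 oligodendrocyte markers, 9 fell in the same way. Of the 11 markers of astrocytes, which hold much of the glutathione of the brain, 4 rose and 1 fell at an adjusted p under 0.05, with summed levels of 3756 to 4304 CPM in the Control and 4051 to 4596 CPM in the EtOH mice. Gfap, the astrocyte filament protein, was the one called higher, with all EtOH mice above all controls (log2 fold change 0.77, edgeR adjusted p = 3.15e-05). Of 6 tested choroid plexus markers, 4 were called higher and 0 lower, and the sums of EtOH 1 to 5 were 122, 21.3, 996, 280 and 12.2 CPM against 8.08 to 22.8 CPM in the controls, while Kl was higher in every EtOH mouse than in any control (8.09 to 47.9 against 1.76 to 3.71 CPM). The part of these differences in the results on the enzymes was not tested. In bulk tissue, the number of cells of a type or region in a sample and the RNA per cell cannot be told apart. Control 6 stood apart with 128 CPM of red blood cell markers against 9.18 to 21.0 CPM in the other controls.

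**Figure D1:**
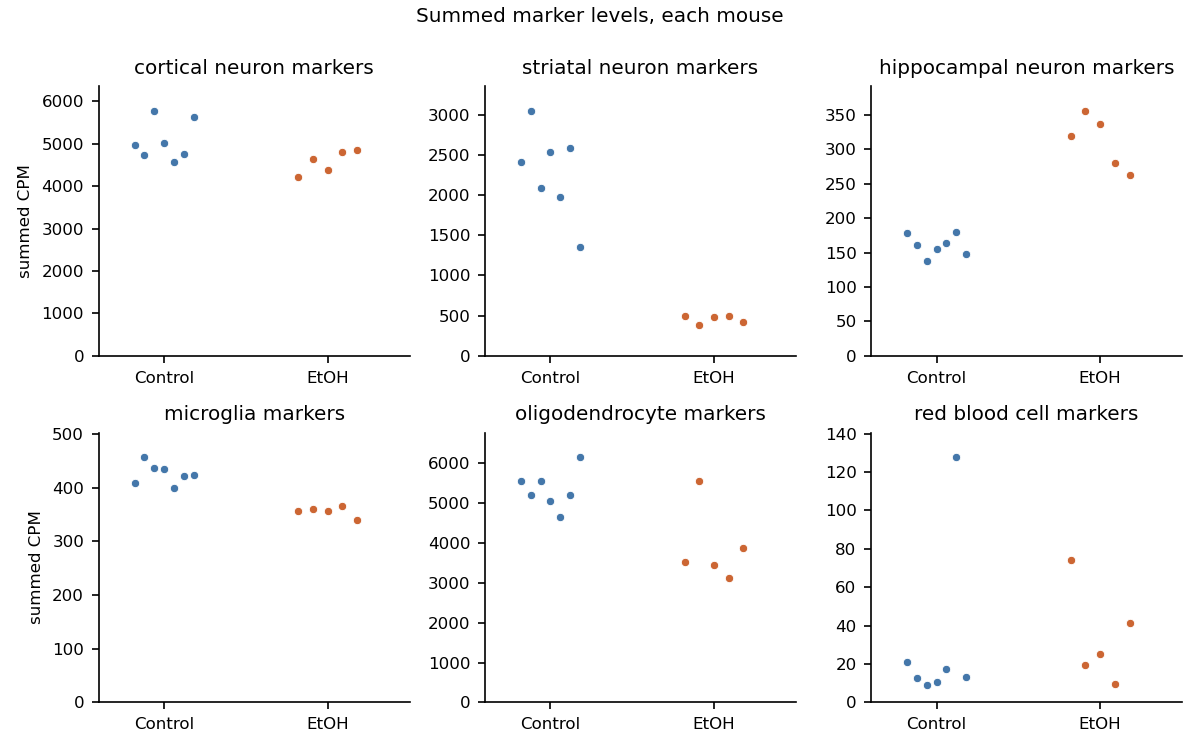
Summed CPM (y axis, from 0) of 6 lists of marker genes in each mouse, with one point a mouse and Control and EtOH side by side. The striatal sums of the 5 EtOH mice (386 to 499 CPM) and their microglial sums (340 to 365 CPM) lie below those of all Control mice, and their hippocampal sums (263 to 356 CPM) above.

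The catalytic centre of several glutathione peroxidases holds selenocysteine, which the ribosome inserts at a TGA codon that elsewhere ends translation. This codon is shown because the 2 peroxidases that fell, Gpx1 and Gpx4, both carry it and so draw on the same selenium supply as the selenoproteins described further on. The 51 bases around it, read 5′ to 3′ on the coding strand from the GRCm39 genome with Gencode M39 coding exons and with the codon in capitals, lie at chr9:108216626-108216676 for Gpx1 (codon 47 of its coding sequence) and at chr10:79890547-79890597 for Gpx4 (codon 73).

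Gpx1: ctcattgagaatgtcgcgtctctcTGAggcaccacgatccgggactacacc

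Gpx4: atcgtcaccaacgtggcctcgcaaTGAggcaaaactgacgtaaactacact

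Gpx3, which fell as well, holds 1 such codon at position 73 of its coding sequence, and Gpx2 holds 1 at position 40. No in-frame TGA was found in the coding sequence of mouse Gpx6, which fell too (log2 fold change -4.82).

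Of the 10 enzyme genes, 1 was called lower in the EtOH mice and 0 were called higher (edgeR quasi-likelihood test with Benjamini-Hochberg adjustment over 16059 genes, the same call rule). Over all genes tested, 4.09% were called lower and 4.2% higher, and DESeq2 and limma voom gave the same counts of 1 and 0 for the enzyme genes. Without a minimum fold change, 4 enzyme genes were lower (Gpx1, Gpx4, Gsr and Sod1) and 1 was higher (Gss), where 11.6% of all genes were lower and 12.1% higher. At an unadjusted p under 0.05, 5 were lower and 1 was higher, against 17.9% and 18.6% of all genes. Every EtOH mouse lay below every Control mouse for 2 of the 10, Gpx1 and Gsr, as for 4.96% of all genes, and above for 0 of the 10, as for 4.84%. Their log2 fold changes were negative in 9 of 10, with a median of -0.21, whereas 49.99% of all genes tested had a negative value and their median was 7.21e-05.

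**Figure D2:**
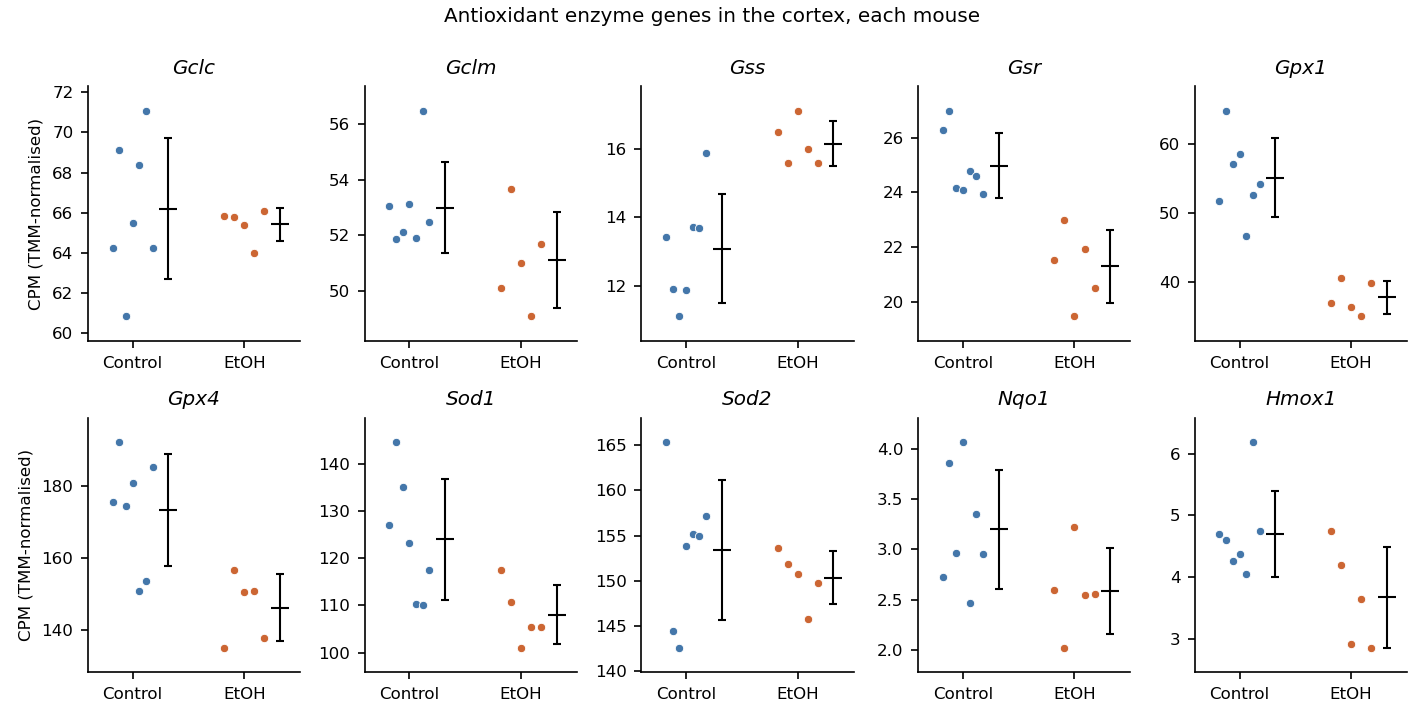
TMM-normalised CPM (y axis, scaled to each gene and not starting at 0) of the 10 enzyme genes in each mouse, with the mean and SD beside the points (Control n = 7, EtOH n = 5). Gpx1 and Gsr separate fully, with every EtOH mouse below every Control mouse, whereas Gclc, Gclm and Sod2 overlap widely.

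Gpx1 had the smallest p-value of the 10. It encodes the cytosolic and mitochondrial peroxidase that reduces hydrogen peroxide and lies on chromosome 9 of GRCm39 from 108216102 to 108217546. Its level in the Control mice ranged from 46.7 over a median of 54.2 to 64.9 CPM, and EtOH 1 to 5 had 36.9, 40.5, 36.3, 34.95 and 39.8 CPM. The groups did not overlap, and the highest EtOH mouse (EtOH 2) remained under the lowest control (Control 5). Gpx1 fell from a Control mean of 55.1 ± 5.78 to an EtOH mean of 37.7 ± 2.37 CPM (SD, n = 7 and 5) (log2 fold change -0.55, SE 0.07, edgeR adjusted p = 3.45e-05), or 31.6% lower. By p-value it was number 355 of the 16059 genes. With any 1 mouse left out, the log2 fold change lay between -0.59 and -0.51 and the adjusted p did not exceed 0.000244. The value lies close to the minimum of 0.5: with each library's trend on gene length removed it became -0.47 (adjusted p = 2.78e-05), and with 1 surrogate variable as a covariate -0.35 (adjusted p = 0.00244), so the call by both criteria was lost under these alternatives while the adjusted p stayed under 0.05. Of its 1445 bases of exon, 1232 are shared with the long non-coding RNA Gm57050 on the other strand, which has no entry in the table, and the strand setting of the counting is not given in the sources used here.

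Gpx4, the peroxidase that reduces lipid hydroperoxides within membranes and is known for holding off ferroptosis, lies on chromosome 10 from 79883000 to 79892273. The Control mice ranged from 150.9 over a median of 175.5 to 192.1 CPM, and EtOH 1 to 5 had 135, 157, 151, 151 and 138 CPM. Only Control 5 and Control 6 reached down into the range of the EtOH mice, and 5 of 7 controls lay above all of them. Gpx4 fell from a Control mean of 173.3 ± 15.5 to an EtOH mean of 146 ± 9.23 CPM (SD, n = 7 and 5) (log2 fold change -0.24, SE 0.07, edgeR adjusted p = 0.0123). The adjusted p became 0.0528 with the length trend removed and 0.529 with 1 surrogate variable, where the log2 fold changes were -0.16 and -0.09. Reads of Gpx4 can also match its annotated copies Gpx4-ps1 and Gpx4-ps2, and how such reads were counted is not described in the sources used here.

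Among the genes of glutathione synthesis and recycling, glutathione reductase fell and glutathione synthetase rose, while neither ligase subunit passed the test. Gsr, on chromosome 8 from 34142551 to 34188192, ranged in the Control mice from 23.9 over a median of 24.6 to 27.0 CPM, and EtOH 1 to 5 had 21.5, 23.0, 19.5, 21.9 and 20.5 CPM. Thus all 5 EtOH mice lay below all 7 controls, although the nearest mice, EtOH 2 and Control 7, were less than 1 CPM apart. Gsr fell from a Control mean of 25.0 ± 1.19 to an EtOH mean of 21.3 ± 1.35 CPM (SD, n = 7 and 5) (log2 fold change -0.23, SE 0.06, edgeR adjusted p = 0.00988). Its adjusted p stayed under 0.05 with any 1 mouse left out and reached 0.204 with 1 surrogate variable (log2 fold change -0.18).

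Gss, on chromosome 2 from 155405096 to 155455505 on the minus strand, was the one member that rose. The Control mice ranged from 11.1 over a median of 13.4 to 15.9 CPM, and EtOH 1 to 5 had 16.5, 15.6, 17.1, 16.0 and 15.6 CPM. The overlap came from Control 7 alone, whose 15.9 CPM lay above EtOH 2 and EtOH 5. Gss rose from a Control mean of 13.1 ± 1.60 to an EtOH mean of 16.2 ± 0.65 CPM (SD, n = 7 and 5) (log2 fold change 0.30, SE 0.08, edgeR adjusted p = 0.0142). With any 1 mouse left out it lay between 0.27 and 0.35 with an adjusted p of at most 0.0374, and with 1 surrogate variable it was 0.15 (adjusted p = 0.46). The exons of Gss share 1511 bases with those of Acss2 on the other strand, a gene whose log2 fold change was 0.02 (edgeR adjusted p = 0.803), and 86 bases with those of Myh7b (0.07, edgeR adjusted p = 0.699). Without strand, reads from such stretches cannot be told apart.

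The 2 ligase subunits had the values nearest to those of the controls among the synthesis genes. Gclc, on chromosome 9 from 77661797 to 77701770, had 66.2 ± 3.51 CPM in the Control (SD, n = 7) and 65.4 ± 0.834 CPM in the EtOH mice (SD, n = 5) (log2 fold change -0.02, SE 0.05, edgeR adjusted p = 0.828), and the 5 EtOH mice lay within the range of the controls. Its modifier partner Gclm, on chromosome 3 from 122039126 to 122065061, had 53.0 ± 1.62 and 51.1 ± 1.73 CPM (log2 fold change -0.05, SE 0.05, edgeR adjusted p = 0.439). For Gclm, 4 of the 5 EtOH mice lay below all controls, but by small margins: EtOH 1 to 5 had 50.1, 53.7, 51.0, 49.1 and 51.7 CPM and the lowest control 51.9 CPM. Thus, within the pathway, the genes of the first step had log2 fold changes of -0.02 and -0.05, that of the second step rose by 0.30 and that of recycling fell by 0.23 on the log2 scale.

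Of the superoxide dismutases, the copper-zinc enzyme Sod1 was lower by a margin that depended on single mice, and the mitochondrial manganese enzyme Sod2 did not pass the test. Sod1, on chromosome 16 from 90017408 to 90027657, ranged from 110.1 over a median of 123 to 145 CPM in the Control mice, and EtOH 1 to 5 had 117, 111, 101, 105 and 106 CPM. The controls Control 5 and Control 6, at 110.4 and 110.1 CPM, lay within the range of the EtOH mice. Sod1 fell from a Control mean of 124 ± 12.7 to an EtOH mean of 108 ± 6.27 CPM (SD, n = 7 and 5) (log2 fold change -0.20, SE 0.07, edgeR adjusted p = 0.0447). The adjusted p exceeded 0.05 when any of 8 mice, Control 1 to 4 or EtOH 2 to 5, was left out, ranging from 0.0170 to 0.106 over all 12, and with 1 surrogate variable it was 0.941 (log2 fold change -0.01). The exons of Sod1 in Gencode M39 share 4217 bases with those of Scaf4 on the other strand, a gene that rose by 0.20 on the log2 scale (edgeR adjusted p = 0.0245).

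Sod2, on chromosome 17 from 13224095 to 13259591, had 153.3 ± 7.76 CPM in the Control (SD, n = 7) and 150.3 ± 2.92 CPM in the EtOH mice (SD, n = 5). Its log2 fold change was -0.03 (SE 0.05, edgeR adjusted p = 0.698). The values of the EtOH mice, 154, 152, 151, 146 and 149.8 CPM, all fell between the lowest (143 CPM) and the highest control (165 CPM).

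The enzymes best known as readouts of Nrf2 had the fewest counts of the 10 and did not pass the test. Nqo1, a quinone reductase on chromosome 8 from 108113835 to 108129934 (minus strand), had 3.20 ± 0.589 CPM in the Control (SD, n = 7) and 2.59 ± 0.425 CPM in the EtOH mice (SD, n = 5) (log2 fold change -0.30, SE 0.15, edgeR adjusted p = 0.168). EtOH 3, at 3.22 CPM, lay above 4 of the 7 controls. Hmox1, the inducible enzyme that breaks down haem, lies on chromosome 8 from 75820241 to 75827217. It ranged from 4.06 over a median of 4.60 to 6.19 CPM in the Control mice, and EtOH 1 to 5 had 4.75, 4.20, 2.92, 3.64 and 2.86 CPM. The log2 fold change was -0.35 (SE 0.15, edgeR adjusted p = 0.0897). The highest control for Hmox1 was Control 6, the mouse with the most red blood cell markers, and the highest EtOH mouse was EtOH 1, which also had the highest red blood cell sum of its group (74.1 CPM). EtOH 5 had the next highest sum of that group (41.5 CPM) and the lowest Hmox1 level of all mice. The part of blood content in the Hmox1 levels was not tested. Without Control 6 the edgeR adjusted p of Hmox1 was 0.166 and without EtOH 1 it was 0.0364, with log2 fold changes of -0.27 and -0.46. Without EtOH 3 it was 0.203 and without EtOH 5 0.209, with log2 fold changes of -0.28 and -0.27. Both genes rest on 65 to 205 counts a mouse, and their coefficients of variation in the Control mice, 18.4% and 14.9%, were higher than those of the other 8 members (3.05% to 12.2%).

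**Figure D3:**
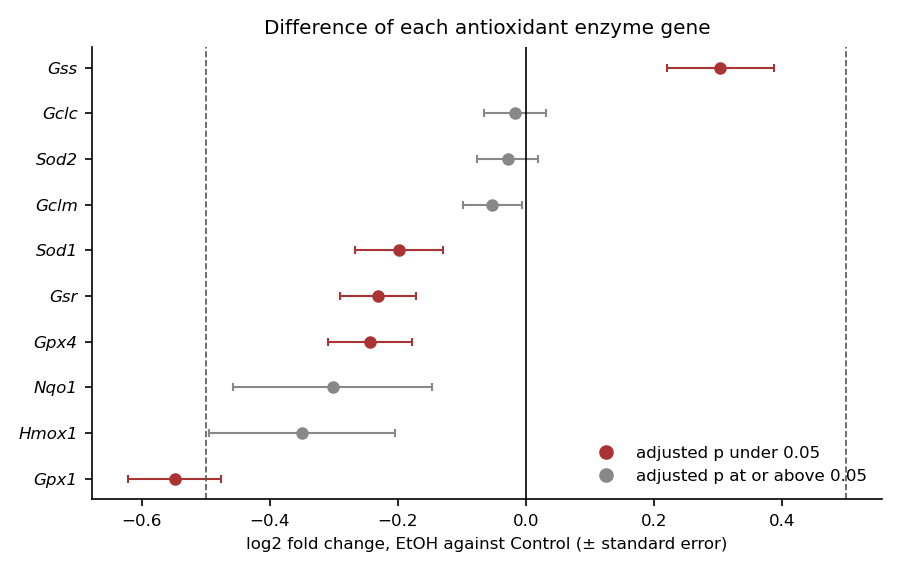
Log2 fold change of each enzyme gene (x axis, EtOH against Control) with its standard error as a bar, red where the edgeR adjusted p is under 0.05 and grey elsewhere; dashed lines mark 0.5 in either direction. Gpx1 (-0.55) is the only gene past the line, and Gss (0.30) the only red point on the positive side.

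Per kilobase of exon as annotated in Gencode M39, the peroxidases stood at the top of the 10 in the Control mice. Because Gencode M39 gives some of these genes long additional exons, the order was taken both over all annotated exons and over the canonical transcript. Even the canonical transcript of Sod1 has 5315 bases there, against 959 for Gpx4, so the place of Sod1 holds for these lengths only. Gpx4 came first with 100.5 ± 9.02 CPM per kilobase over all exons (181 ± 16.2 over the canonical transcript, SD, n = 7), followed by Gpx1 with 38.1 ± 4.00 (51.4 ± 5.39). Sod1, Sod2 and Gclc followed, at 10.6 to 14.3 CPM per kilobase over all exons. The order of Sod1 and Sod2 turned with the lengths used, and over the canonical transcript their means differed by less than the SD of Sod1. Nqo1 came last on either measure, with 1.16 ± 0.214 and 1.20 ± 0.221 CPM per kilobase.

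Within the groups, some mice were the highest or the lowest for several members. Control 2 was the highest control for 4 members (Gsr, Gpx1, Gpx4 and Sod1), and Control 5 was the lowest for 4 (Gpx1, Gpx4, Nqo1 and Hmox1). Among the EtOH mice, EtOH 2 was the highest for 4 members (Gclm, Gsr, Gpx1 and Gpx4) and EtOH 4 the lowest for 4 (Gclc, Gclm, Gpx1 and Sod2). Each other mouse was the highest, or the lowest, for at most 3. Control 2 also had the highest striatal (3049 CPM) and microglial (457 CPM) marker sums of all mice, and Control 5 the lowest microglial sum of the controls (400 CPM). EtOH 2 had the highest oligodendrocyte sum of its group (5545 CPM, against 3109 to 3872 CPM in the other EtOH mice) but the lowest striatal sum of all mice (386 CPM).

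Gene length moved with the groups as well. Over protein-coding genes, the median log2 fold change went from -0.15 for the 347 genes with at most 1500 bases of exon to 0.13 for the 826 genes with more than 15000 bases. Gpx1 falls in the shortest range, with 1445 bases, and Gpx4 and Hmox1 in the next one (1500 to 2000 bases), whose median was -0.11. Gsr, Gss, Gclc and Gclm have between 5000 and 8000 bases, a range with a median of -0.01. In the 773 genes of at most 2000 bases, the median deviation from each gene's mean ranged from -0.04 to 0.19 (log2) in the Control mice, highest in Control 2, and from -0.10 to -0.03 in the EtOH mice. With the trend removed, the log2 fold change of Gsr went from -0.23 to -0.24 and that of Gss was 0.30 in both fits, while Gpx1 moved from -0.55 to -0.47 and Gpx4 from -0.24 to -0.16. Sod1 and Sod2, with 8000 to 15000 bases of exon in a range whose median was 0.05, moved the other way, Sod1 from -0.20 to -0.23 and Sod2 from -0.03 to -0.11 (edgeR adjusted p = 0.0665). For Sod1 this direction rests on its 8648 bases in Gencode M39, of which 4217 are shared with Scaf4. A fit with shorter lengths, which would place Sod1 in another range, was not run. What gives rise to the trend was not tested.

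**Figure D4:**
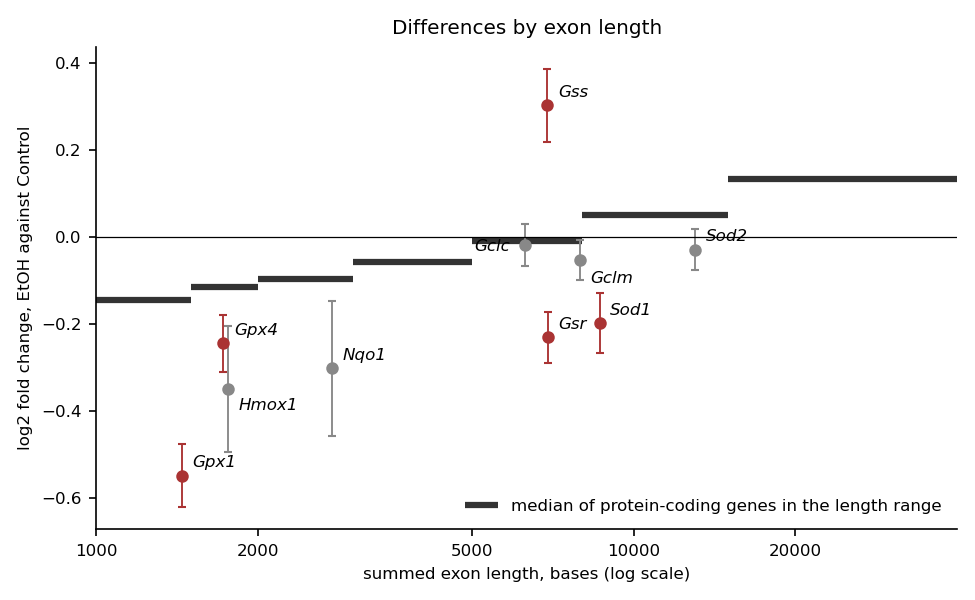
Log2 fold change (y axis, EtOH against Control) against summed exon length in Gencode M39 (x axis, log scale). Black bars give the median of all protein-coding genes in each length range, points the 10 enzyme genes with their standard errors, red where the adjusted p is under 0.05. The medians climb from -0.15 to 0.13, Gpx1, Gpx4, Gsr and Sod1 lie below the median of their range and Gss lies above it.

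The genes around these enzymes were examined by lists of the pathway, counted at an adjusted p under 0.05 without a fold change minimum unless called lower or higher is written, and to be read against 11.6% lower and 12.1% higher over all genes tested. Over all 16059 genes, 1863 were lower and 1947 higher, but 657 and 503 with 1 surrogate variable as a covariate. Among the other glutathione peroxidases, 4 of 6 could be tested, 2 fell and 0 rose, and Gpx5 had 0 counts in every mouse. The count that fell was 1 with 1 surrogate variable and 1 with the filter of at least 10 counts in every mouse, which removes Gpx6. Gpx3, the secreted peroxidase, fell from a Control mean of 9.39 ± 0.82 to an EtOH mean of 6.74 ± 1.4997 CPM (SD, n = 7 and 5) (log2 fold change -0.48, edgeR adjusted p = 0.00822). Gpx6 was detected with 34 to 89 counts in each Control mouse, and EtOH 1 to 5 had 0, 8, 2, 0 and 0 counts, of which only those of EtOH 2 exceed the floor of 3 counts. Its edgeR adjusted p was 1.38e-05, and its fitted log2 fold change of -4.82 depends on the small count added to each value. Gpx6 and the striatal marker sums were both lower in every EtOH mouse than in any control. The part of the striatal difference in Gpx6 was not tested.

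Upstream of glutathione, of 18 tested genes for precursor uptake and turnover, 1 fell and 2 rose, with a median log2 fold change of -0.04. The smallest p-value was that of Slc7a11, the cystine carrier that supplies cysteine for glutathione and is also an Nrf2 target. It rose from a Control mean of 35.4 ± 3.92 to an EtOH mean of 48.7 ± 7.91 CPM (SD, n = 7 and 5) (log2 fold change 0.46, edgeR adjusted p = 0.00251). EtOH 1 to 5 had 55.3, 36.0, 55.2, 47.1 and 49.7 CPM, and EtOH 2 alone lay within the range of the controls (32.005 to 43.4 CPM). With 1 surrogate variable the log2 fold change of Slc7a11 was 0.26 (edgeR adjusted p = 0.226). Its 15522 bases of exon place it in the range of the longest genes, and with the length trend removed it was 0.35 (edgeR adjusted p = 0.0106). Oplah, which returns 5-oxoproline to glutamate, rose as well (log2 fold change 0.33, edgeR adjusted p = 0.00273). The gene that fell was Chac1, which degrades glutathione (log2 fold change -0.35, edgeR adjusted p = 0.0494), and its adjusted p exceeded 0.05 when any 1 mouse other than Control 5 or Control 7 was left out.

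Of the 19 tested glutathione S-transferases, which attach glutathione to foreign or oxidised molecules, 1 fell and 2 rose. Gstt3 was called lower, from a Control mean of 1.94 ± 0.307 to an EtOH mean of 1.14 ± 0.204 CPM (SD, n = 7 and 5) (log2 fold change -0.76, edgeR adjusted p = 0.00444) at 30 to 81 counts a mouse. Gstz1 rose by 0.22 and Gsta4 by 0.21 on the log2 scale (edgeR adjusted p = 0.0143 and 0.0376). Only 1 of the tested transferases rose with Control 4, 5, 6 or 7 or EtOH 1, 3 or 4 left out, and 3 fell with Control 5 left out. With 1 surrogate variable 0 fell and 0 rose, and Gstt3 had an edgeR adjusted p of 0.121 (log2 fold change -0.65).

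Of 23 other genes of superoxide and hydrogen peroxide defence, 6 fell and 0 rose, 18 had a negative log2 fold change and the median was -0.13. Srxn1, sulfiredoxin, which repairs over-oxidised peroxiredoxins, fell from a Control mean of 89.8 ± 7.31 to an EtOH mean of 71.5 ± 4.30 CPM (SD, n = 7 and 5), with all EtOH mice below all controls (log2 fold change -0.33, edgeR adjusted p = 0.00113, which was 0.105 with 1 surrogate variable). The extracellular dismutase Sod3 fell by 0.47 on the log2 scale (edgeR adjusted p = 0.00147). Catalase, Cat, had 38.6 ± 2.22 CPM in the Control (SD, n = 7) and 40.2 ± 4.10 CPM in the EtOH mice (SD, n = 5), with an edgeR adjusted p of 0.57. The count that fell was 3 with Control 2, 3 or 4 or EtOH 1 left out and 1 with 1 surrogate variable, and 1 gene rose with Control 1 or EtOH 3 left out or with the surrogate variable.

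For the Nrf2 pathway itself, 1 of 13 regulators fell and 0 rose. This was Nfe2l1, a relative of Nrf2, from a Control mean of 354 ± 8.88 to an EtOH mean of 316 ± 8.40 CPM (SD, n = 7 and 5) (log2 fold change -0.16, edgeR adjusted p = 0.00983). With 1 surrogate variable its adjusted p was 0.0771 at an unaltered log2 fold change of -0.16. With the replicate number as a block on 10 mice it was 0.0870, against 0.0335 without the block on these mice. With the length trend removed, 2 regulators fell. With Control 3, 5 or 6 or the deepest library of each group left out, 1 regulator rose. The gene of Nrf2, Nfe2l2, stood at -0.05 on the log2 scale (edgeR adjusted p = 0.625) and Keap1 at 0.08 (edgeR adjusted p = 0.398). Of 25 other known Nrf2 targets, 9 fell and 3 rose, with a median log2 fold change of -0.13. Cbr3, a carbonyl reductase, was called lower (from 7.84 ± 1.32 to 5.11 ± 1.03 CPM, log2 fold change -0.61, edgeR adjusted p = 0.00395). Fth1, the ferritin heavy chain, fell by 0.33 (edgeR adjusted p = 0.00155), and Slc7a11, Ugdh and Gsta4 were those that rose. The 9 that fell and the 3 that rose stand beside 11.6% lower and 12.1% higher over all genes tested, the latter close to the share of targets that rose. With 1 surrogate variable 0 of the 25 fell and 0 rose. The letters of the antioxidant response element core, TGACNNNGC on either strand, were searched in the 300 bases from 250 before to 50 after each member's canonical start in GRCm39. They occurred in 2 of the 10 members, Gclm (GCACCGTCA, the reverse strand) and Sod1 (GCAAAGTCA, likewise), and in 12.5% of 21757 protein-coding genes. Such a match is no more than a match of letters in this window.

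Hmox1 and Gsr also depend on partners that supply or use reducing power. Of 4 haem breakdown partners, biliverdin reductase B (Blvrb) fell by 0.34 on the log2 scale with an edgeR adjusted p of 0.0391, which exceeded 0.05 when any of 7 mice, Control 2 to 4 or EtOH 1 to 4, was left out, and 0 rose. Its adjusted p was also 0.115 with the length trend removed, 0.299 with 1 surrogate variable, 0.0563 with the filter of at least 1 count and 0.0851 without the deepest library of each group. The number of partners that fell was 2 with DESeq2, limma voom, upper quartile factors or Control 5 left out. Por, the reductase that passes electrons to haem oxygenase, had every EtOH mouse below every control (log2 fold change -0.17, edgeR adjusted p = 0.0518). Of 13 tested genes of NADPH supply, 2 fell and 0 rose. Me3, the mitochondrial malic enzyme, fell from a Control mean of 56.0 ± 3.94 to an EtOH mean of 41.8 ± 1.41 CPM (SD, n = 7 and 5), without overlap (log2 fold change -0.42, edgeR adjusted p = 3.99e-05). G6pdx, the first enzyme of the pentose phosphate pathway, fell by 0.31 (edgeR adjusted p = 0.00175), again without overlap. With 1 surrogate variable 1 of the 13 fell. Nnt was not tested, as it had a mean of 0.102 CPM in the Control and 0.180 CPM in the EtOH mice.

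Of 23 genes of selenium supply and other selenoproteins, 5 fell and 0 rose, with a median log2 fold change of -0.10. Selenow had the smallest p-value and fell from a Control mean of 463 ± 53.6 to an EtOH mean of 357 ± 32.3 CPM (SD, n = 7 and 5) (log2 fold change -0.38, edgeR adjusted p = 0.00276). Its 736 bases of exon place it in the range of the shortest genes, and with 1 surrogate variable 0 of the 23 fell. With Control 5 or EtOH 1 left out, 1 of the 23 rose, and 2 rose with both left out or with the length trend removed. Of the 7 tested superoxide-producing oxidases and their subunits, 3 fell and 0 rose. Xdh, xanthine dehydrogenase, was called lower, from a Control mean of 10.6 ± 2.49 to an EtOH mean of 6.64 ± 1.26 CPM (SD, n = 7 and 5) (log2 fold change -0.68, edgeR adjusted p = 0.0042). The count that fell was 1 with EtOH 3 left out, 1 with the length trend removed and 1 with 1 surrogate variable, and 1 oxidase gene rose with the filter of at least 1 count in any mouse. In the 7 lists where edgeR found 0 genes that rose, DESeq2 and limma voom found 0 as well, and at an unadjusted p under 0.05 the number was 2 for superoxide and hydrogen peroxide defence, 1 for the Nrf2 regulators, 3 for the selenoproteins and 0 for the other peroxidases, the haem breakdown partners, NADPH supply and the oxidases, where 18.6% of all genes were higher. Genes such as Srxn1 and Blvrb stand in more than 1 of these lists and count in each.

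**Figure D5:**
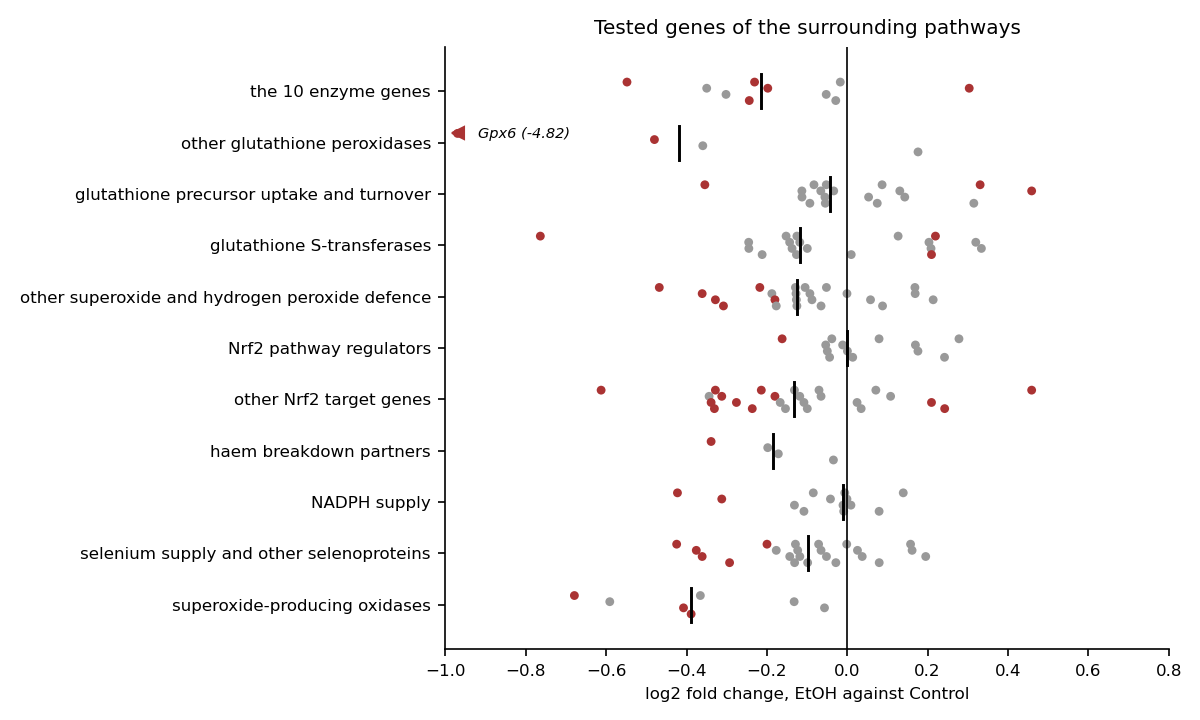
Log2 fold change (x axis, EtOH against Control) of every tested gene of the enzyme set and the 10 surrounding lists, red where the edgeR adjusted p is under 0.05, with the list median as a black bar. An arrow stands for Gpx6 (-4.82), which lies beyond the axis; in 7 of the 10 lists 0 genes rose, and the oxidases and the other peroxidases have the lowest medians.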

How the data were processed

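Bulk RNA-seq of cortex from 12 mice was used, grouped by the labels. Libraries were made and sequenced by BGI. The submitters' processing notes name FastQC 0.11.9, STAR, featureCounts, DESeq2 and the build GRCm39, and the study's methods add Gencode Release 28 as annotation. The authors deposited the result as estimated counts per gene symbol, made from the aligned reads and not normalised. In the table, 61 symbols hold values that are not whole, none of them a member, and counts were rounded. Each column matched a mouse by name.

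Genes were filtered with filterByExpr, normalised with TMM (factors 0.982 to 1.02) and tested with edgeR's quasi-likelihood test (R 4.3.3, edgeR 4.0.16, limma 3.58.1), adjusting p-values over all 16059 genes. The study's thresholds were used for calls: adjusted p under 0.05, log2 fold change beyond 0.5 either way. Standard errors derive from the test statistic. Other settings tried were the tests of DESeq2 1.42.0 and of limma voom, upper quartile or relative log expression factors, filters of 1 count in any mouse and of 10 in every mouse, a log2 fold change above 1, the replicate number as a block, 1 surrogate variable (sva 3.50.0), and mice left out. Fits with each library's trend on exon length removed and without the block on the same 10 mice, and the alternatives for groups that do not overlap were added after seeing the data. The fits were tested on simulated data.

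The members and gene lists were chosen with earlier results of these data known. All members were named, and for each pathway list the called genes (at most 4 by smallest p), or else the gene with the smallest p. Gpx3, Chac1, Oplah, Gstz1, Gsta4, Sod3, Cat, Nfe2l2, Keap1, Fth1, Ugdh, G6pdx, Por, Nnt and the markers Gfap and Kl lie outside this rule and were picked with their values in view. Positions, exon lengths (for 97.3% of the genes tested) and sequences are from Gencode M39 and the GRCm39 genome, whose gene models are newer than Release 28. The RefSeq promoter table at hand is of GRCm38.p6 and was not used. Replicate libraries differed by more than sampling noise (chi-square per degree of freedom 7.84 to 54.7). Strand and multi-mapping settings are not given in the sources used here, so genes with overlapping exons are uncertain.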

Additional observations from a re-analysis of the deposited data

Results flagged for a closer look

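In 22 comparisons within groups (the 10 enzyme genes and the total count, in the Control and in the EtOH mice), 4 values from 3 mice lay far from the others of their group by Dixon's criterion, where chance gives about 1 in 20, or 1.1. Control 6 had the highest Gclm level of the Control mice, 56.5 CPM against 53.1 CPM in the next, and the highest Hmox1 level, 6.19 CPM against 4.75 CPM. The same mouse had 128 CPM of red blood cell markers, and the part of this in its Gclm and Hmox1 levels was not tested. The total count of Control 5 was 40690223 against 32356913 in the next control, and that of EtOH 1 was 42183029 against 33313165. Without these 2 deepest libraries, 6 members had an adjusted p under 0.05 in edgeR's quasi-likelihood test in place of 5, Hmox1 being added at an adjusted p of 0.0248 (log2 fold change -0.49).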

How the results depend on the processing

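With any 1 mouse left out, 1 member was called lower, 0 were called higher, between 4 and 6 had an adjusted p under 0.05 and between 2 and 3 had groups that did not overlap. The number called lower was 0 with 1 surrogate variable, 0 with the length trend removed and 0 with a minimum log2 fold change of 1. The number at an adjusted p under 0.05 was 1 with the surrogate variable and between 4 and 6 under every other alternative. Over all genes, the surrogate variable lowered the calls to 409 lower and 314 higher. Without a fold change minimum it left 657 genes lower and 503 higher, against 1863 and 1947 without it. Of 230 member values, 212 kept their direction and side of the threshold, 15 lost significance, 2 (both Hmox1) gained it and 1 turned direction. That 1 was Gclc, whose log2 fold change ranged from -0.0366 to 0.000327 over the mice left out. The cause of these shifts was not tested. Sod1 had an adjusted p of 0.0504 with limma voom and 0.0543 with the filter of at least 1 count. The replicate numbers do not pair the mice (correlations of same-numbered deviations from -0.108 to 0.0182 over 5 numbers). With the replicate block on 10 mice, 1 member was called lower, 0 were called higher and 5 had an adjusted p under 0.05, the same counts as without it on these 10 mice, and the log2 fold change of Gpx1 was -0.56. Nfe2l1 had an adjusted p of 0.0870 with the replicate block and 0.0335 without it on these 10 mice. Nqo1 and Hmox1 rest on the fewest counts of the members, 65 to 205 a mouse.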
